A study of Sus scrofa with 12 samples.

Results

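The miR-15, miR-16, miR-195 and miR-497 family was followed through small RNA libraries of adult pig testis. Members were chosen by name alone, as every mature miRNA called miR-15a, miR-15b, miR-16, miR-195 or miR-497, with either arm of the hairpin admitted. This gave 5 of the 765 names in the files, on 6 of the 845 entries, because miR-16 was listed under each of its 2 precursors. No member was listed with an arm suffix or with a second arm. All 5 passed the filter on low values, which 421 names passed in all. The libraries came from testes of male pigs aged 12 months, 3 of the breed labelled Western Duroc and 3 of the breed labelled Large white, both kept in a room with controlled temperature and humidity. No treatment or altered gene was stated for either breed. The labels do not tie each library to a separate animal, so the p-values measure the spread between libraries, which may be partly technical. The series also named Diannan small-ear pigs, which were not analysed here.

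A miRNA guides the Argonaute complex to messenger RNAs that pair with its seed, the short stretch near its 5′ end, and so lowers their translation and stability. The 5 members share 1 seed, and their textbook targets include cyclins of the D and E type, other regulators of entry into the cell cycle, and the survival factor BCL2. The family is known for holding back proliferation, and miR-15a and miR-16 for their loss in chronic lymphocytic leukaemia. In mammals its members lie in pairs, each pair made as 1 primary transcript.

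The pig genes lay in 3 such pairs on the assembly Sscrofa11.1, by RefSeq. MIR15A lay on chromosome 11 at 17757463 to 17757541, and a miR-16 gene followed at 17757606 to 17757684, 64 bases further on. No other listed gene spanned that pair. MIR15B lay on chromosome 13 at 100083172 to 100083269, and the other miR-16 gene at 100083329 to 100083405, with 59 bases between them. Both lay within the span of SMC4, a gene for a subunit of condensin, at 100078149 to 100120907. MIR195 lay on chromosome 12 at 52422039 to 52422118 and MIR497 at 52422329 to 52422408, with 210 bases between them, and both within the span of the long non-coding RNA gene LOC102161115, at 52420175 to 52424455. Strand and exons were not given in the table, so exon and intron were not told apart. RefSeq listed both precursor names of miR-16 under each of its 2 genes, so neither name can be tied to a chromosome.

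The 6 libraries differed in depth and in makeup. Summed over all entries, they held 3473206 to 13209412 reads in Duroc and 1481386 to 2483001 in Large white. With 1 entry kept per name, the sums were 3103520 to 12474430 and 1313042 to 2194275. Levels are given as normalised RPM, in which reads are brought to a common library size by TMM, a scaling that lines up the bulk of the miRNAs between libraries. Its factor was 0.464 in Duroc library 1 and 0.792 in Duroc library 3, against 1.15 to 1.36 in the other 4 libraries, and these 2 Duroc libraries stood apart. There, miR-34c, a miRNA of meiotic and later germ cells, stood at 2774 and 4156 normalised RPM, whereas Duroc library 2 held 15862 and the Large white libraries 12228 to 15959. Values of 3 libraries are given in the order of their numbers throughout. The testis label fitted the presence of miR-34c and of the gonadal miR-202-5p, at 9579 ± 347 (Duroc) and 11155 ± 816 (Large white) normalised RPM (SD, n = 3 each). As the tissue was sequenced whole, fewer cells of a type and less of a miRNA per cell cannot be told apart.

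Within the family, miR-16 and miR-195 were the abundant members, miR-497 and miR-15b were intermediate, and miR-15a was scarce. Mature miRNAs are of nearly equal length, so their reads were compared without scaling to length, but how well the library kit captured each sequence was not measured. Over the 6 libraries miR-16 ranked 55 and miR-195 ranked 69 among the 300 tested miRNAs with a name, followed by miR-497 at 110, miR-15b at 141 and miR-15a at 218. The order was miR-16, miR-195, miR-497, miR-15b and miR-15a in every library except Duroc library 3, where miR-195 stood above miR-16. Levels of miR-16 and miR-195 overlapped in Duroc and did not in Large white. Those of all other neighbours in the order did not overlap in either breed.

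**Figure D1:**
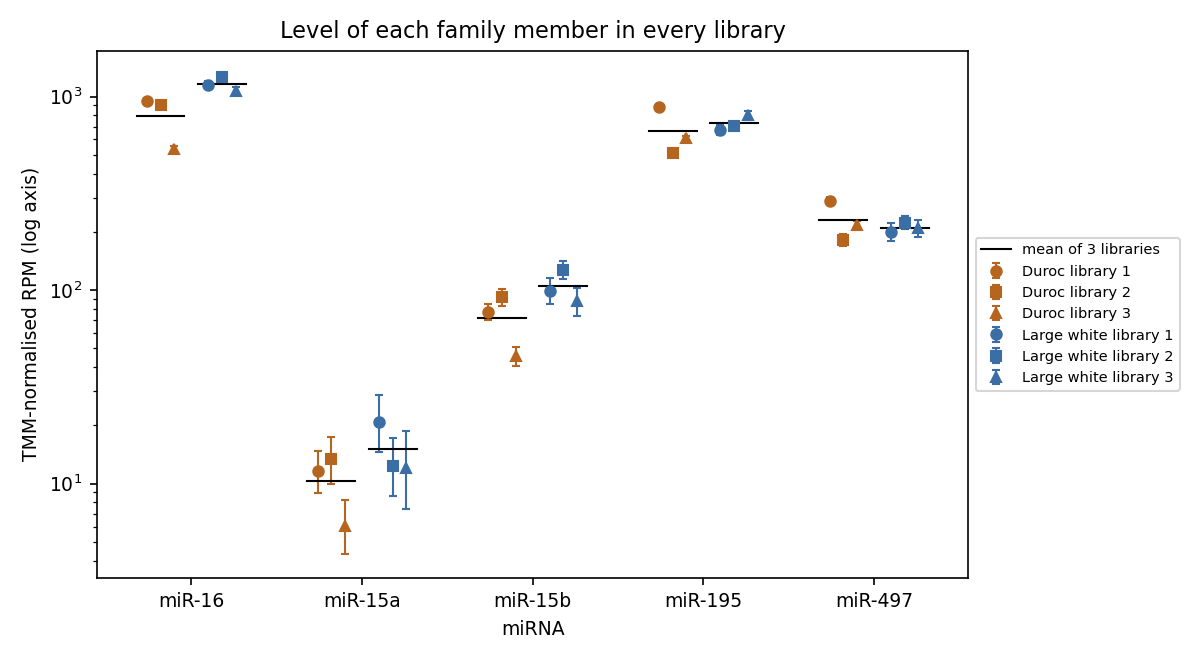
Normalised RPM on a log axis for each member of the family, with 1 point per library, black lines for the mean of the 3 libraries of a breed, and bars for the exact 95% Poisson interval of the reads, which covers counting error only. Duroc library 3, the brown triangle, is the lowest library for miR-16, miR-15a and miR-15b, but not for miR-195 or miR-497.

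With TMM, miR-16 was the one member whose Duroc libraries all lay under every Large white library. The same held for 11.4% of all 421 miRNAs. The Duroc libraries held 947, 899 and 536 normalised RPM of it, the Large white libraries 1151, 1256 and 1068. The Duroc mean was 794 ± 225 and the Large white mean 1158 ± 94.1 (SD, n = 3 each). The log2 fold change, Duroc minus Large white, was -0.54 (SE 0.27, 95% interval -1.16 to 0.07) and did not pass edgeR's quasi-likelihood test over all miRNAs (adjusted p = 0.378). That interval spans from 0.447-fold to 1.05-fold. The fold change was -0.32 without Duroc library 3, and -0.33 for Duroc library 2 alone against Large white. The level of miR-16 thus came lowest in 1 of the 2 Duroc libraries that stood apart, and in Duroc library 1 it lay close to that of library 2.

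miR-16 is also known as an abundant miRNA of red cells, so the red cell list is given beside it. Its 3 members (miR-451, miR-144 and miR-486) summed to 2071 to 5951 normalised RPM over the Duroc libraries, with 1795 to 4219 over those of Large white. That sum is nearly all miR-451, whose means were 4030 ± 1934 (Duroc) and 2686 ± 1130 (Large white), with a log2 fold change of 0.58. miR-486 went the other way, at 52.4 ± 13.6 (Duroc) and 134 ± 126 (Large white), with a log2 fold change of -1.36 that did not pass edgeR's adjusted threshold (adjusted p = 0.342), and miR-144 stood at only 2.69 and 1.65. The summed level was lowest among Duroc libraries in library 3, with 2071, and highest in library 1, with 5951. Its part in the level of miR-16 was not tested.

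Reads of miR-16 cannot be split between its 2 genes. The entries of its precursors differed by at most 20 reads, in Large white library 2, where they held 3637 and 3657 reads. The smallest difference was 1 read, in Duroc library 3, with 3643 and 3642. The same mature miRNA comes from both precursors, and the level of miR-16 is therefore taken over the chromosome 11 and the chromosome 13 pair together.

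miR-15b, the partner of miR-16 on chromosome 13, stood at 76.9, 91.8 and 45.7 normalised RPM in the Duroc libraries, and the Large white libraries held 99.1, 127 and 87.3. Duroc library 3 was again lowest, and Duroc library 2 lay above Large white library 3, so the breeds overlapped. The log2 fold change was -0.55 (SE 0.32, 95% interval -1.27 to 0.17) and did not pass edgeR's test (adjusted p = 0.392). It was -0.30 without Duroc library 3, -0.80 without Duroc library 2 and -0.16 for Duroc library 2 alone.

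miR-15a, the partner of miR-16 on chromosome 11, stood at 11.6, 13.3 and 6.04 normalised RPM in the Duroc libraries, and the Large white libraries held 20.7, 12.4 and 12.0. Duroc library 3 was lowest and Large white library 1 highest, while the other 4 lay close together. These levels rest on 20 to 67 reads per library. In Large white library 3 the 20 reads have an exact 95% Poisson interval of 12.2 to 30.9 reads, which covers counting error only. The log2 fold change was -0.55 (SE 0.42, 95% interval -1.51 to 0.42, edgeR adjusted p = 0.518). It was -0.27 without Large white library 1, -0.26 without Duroc library 3 and -0.12 for Duroc library 2 alone, so its size rests on single libraries.

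The chromosome 12 pair did not follow that order of libraries. The Duroc libraries held 881, 512 and 609 normalised RPM of miR-195, the Large white libraries 672, 706 and 802. Duroc library 1 was the highest of all 6 and Duroc library 2 the lowest, so the Duroc libraries enclosed those of Large white. The means were 667 ± 191 and 727 ± 67.1 (SD, n = 3 each). The log2 fold change of -0.12 (SE 0.26, 95% interval -0.72 to 0.48) did not pass edgeR's test (adjusted p = 0.861), and it was 0.01 without Duroc library 2 and -0.47 for that library alone.

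Of miR-497 the Duroc libraries held 289.7, 182 and 216 normalised RPM, the Large white libraries 199, 223 and 208. As with miR-195, Duroc library 1 was the highest and Duroc library 2 the lowest. The log2 fold change was 0.13 (SE 0.25, 95% interval -0.43 to 0.68, edgeR adjusted p = 0.852), and -0.06 without Duroc library 1. These intervals leave room for differences in either direction, up to 0.607-fold and 1.39-fold for miR-195 and 0.740-fold and 1.61-fold for miR-497.

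No member passed the adjusted threshold of 0.05 by edgeR, nor did any of all 421 miRNAs, a background of 0%. At an unadjusted p under 0.05, 0 of the 5 members and 60 of the 421 miRNAs passed by edgeR, or 14.3% of all. DESeq2 also called 0 members, against 14 of 421, or 3.33%, and limma on log2(RPM + 1) called 0 members and 0 of 421. Before adjustment DESeq2 had 0 members and 66 miRNAs (15.7%) at a p under 0.05. limma, which kept the scaling to the library total, had 3 members and 83 miRNAs (19.7%). The log2 fold change was below 0 in 4 of the 5 members and in 46.8% of all miRNAs, with a median of -0.54 over the members and 0.06 over all. The breeds did not overlap, with Duroc lower, in 1 of the 5 members and in 11.4% of all miRNAs.

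Scaling set much of the size of these differences. When reads were scaled to the library total in place of TMM, the median log2 fold change of all miRNAs went to -0.56, a shift of -0.62. All 5 members then lay below 0, as did 81.7% of all miRNAs, with log2 fold changes of -1.13 for miR-16, -1.11 for miR-15a, -1.08 for miR-15b, -0.83 for miR-195 and -0.57 for miR-497. Relative to the median of all miRNAs, miR-16, miR-15a and miR-15b lay lower under both scalings and miR-195 did so by less, while miR-497, which lay above 0 with TMM, lay at about that median with total scaling. With total scaling the Duroc libraries lay under every Large white library in 3 members (miR-16, miR-195 and miR-497), against 22.1% of all miRNAs. None passed edgeR's adjusted threshold there either, where the smallest adjusted p of a member was 0.386. Before adjustment, 2 members (miR-16 and miR-195) and 54 of the 421 miRNAs had an edgeR p under 0.05 with total scaling.

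The RPM as deposited, which is scaled to the total, parted the libraries differently for miR-16 and for miR-195. For miR-16 the Duroc values were 415, 1049 and 398 and the Large white values 1387, 1473 and 1108. For miR-195 the Duroc values were 386, 598 and 451 and the Large white values 810, 828 and 831. Duroc libraries 1 and 3 were far under the other 4 for miR-16, and Duroc library 2 was near Large white. For miR-195 Duroc library 2 also lay well under Large white. Summed over the 5 members, the Duroc libraries held 967, 1983 and 1047 RPM, the Large white libraries 2582, 2726 and 2258. With TMM scaling those sums were 2206, 1699 and 1413 (Duroc) and 2142, 2324 and 2177 (Large white), so Duroc library 1 moved from the lowest of the 6 to the second highest.

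**Figure D2:**
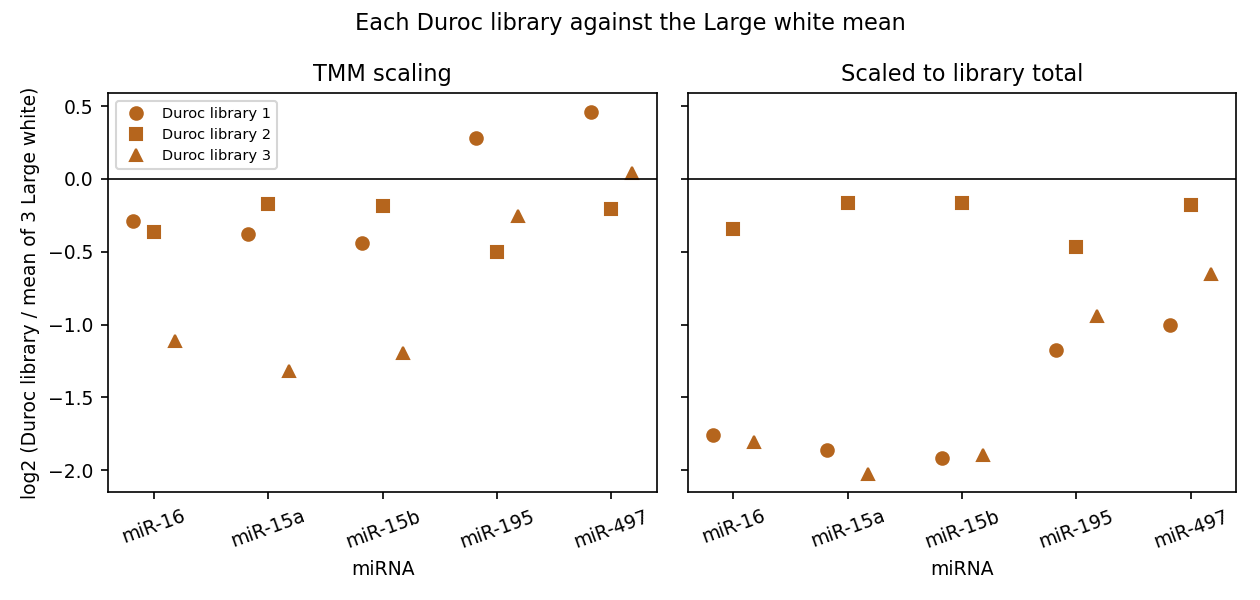
Log2 ratio of each Duroc library to the mean of the 3 Large white libraries, for each member, with TMM scaling at left and scaling to the library total at right. Duroc library 2 hardly moves between the panels (-0.36 and -0.34 for miR-16), whereas Duroc library 1 goes from -0.29 to -1.76 for miR-16 and from 0.28 to -1.18 for miR-195.

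Ratios of reads within a library do not depend on how libraries are scaled, and 5 such ratios were compared between the breeds. With 3 libraries against 3, the exact permutation test cannot give a two-sided p below 0.1, so no ratio could pass.

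The miR-15b to miR-16 ratio varied within each breed more than between the breeds. Counting intervals did not overlap between Duroc library 1 (0.0735 to 0.0894) and Duroc library 2 (0.0915 to 0.114; exact 95% binomial intervals). The Duroc libraries gave 0.0812, 0.102 and 0.0851, the Large white libraries 0.0861, 0.101 and 0.0818. Between 9.80 and 12.3 reads of miR-16 thus stood against each read of miR-15b in every library, Duroc library 3 with its low levels of both included. The breeds differed by -0.01 on the log2 scale, with a SD of 0.17 in Duroc and 0.16 in Large white (n = 3 each, exact permutation p = 0.8, adjusted p = 1).

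The miR-15a to miR-16 ratio was lower and less precise. The Duroc libraries gave 0.0122, 0.0148 and 0.0113, the Large white libraries 0.0180, 0.00984 and 0.0113. Large white library 1 held the highest value and Large white library 2 the lowest, so that the spread within that breed covered all Duroc libraries. The means differed by -0.002 on the log2 scale (exact permutation p = 1, adjusted p = 1). miR-15a and miR-15b also held a similar ratio, of 0.132 to 0.151 in Duroc and 0.0973 to 0.209 in Large white, with a difference of 0.005 (exact permutation p = 1, adjusted p = 1). Leaving out Large white library 1 moved the difference to 0.25 for miR-15a to miR-16 and to 0.29 for miR-15a to miR-15b.

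The miR-195 to miR-497 ratio was the one of the 5 without overlap between the breeds. The Duroc libraries held 3.04, 2.81 and 2.82 reads of miR-195 per read of miR-497, the Large white libraries 3.37, 3.17 and 3.85. All Duroc libraries lay lower, Duroc library 2 included, and the mean ratio was 0.838-fold that of Large white. The difference was -0.26 on the log2 scale, at the smallest p the design allows (exact permutation p = 0.1, adjusted p = 0.5 over the 5 ratios). Counting intervals of the nearest libraries overlapped, namely 2.88 to 3.22 (Duroc library 1) and 2.90 to 3.47 (Large white library 2; exact 95% binomial intervals). Leaving out Large white library 3 gave the smallest difference, -0.18.

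The chromosome 12 pair against miR-15a, miR-15b and miR-16 together separated libraries within Duroc rather than the breeds. This ratio was 1.13 and 1.40 in Duroc libraries 1 and 3, but 0.691 in Duroc library 2, inside the range of Large white (0.666 to 0.865). The mean difference was 0.49 on the log2 scale (exact permutation p = 0.2, adjusted p = 0.5). It was 0.78 without Duroc library 2 and 0.27 without Duroc library 3.

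**Figure D3:**
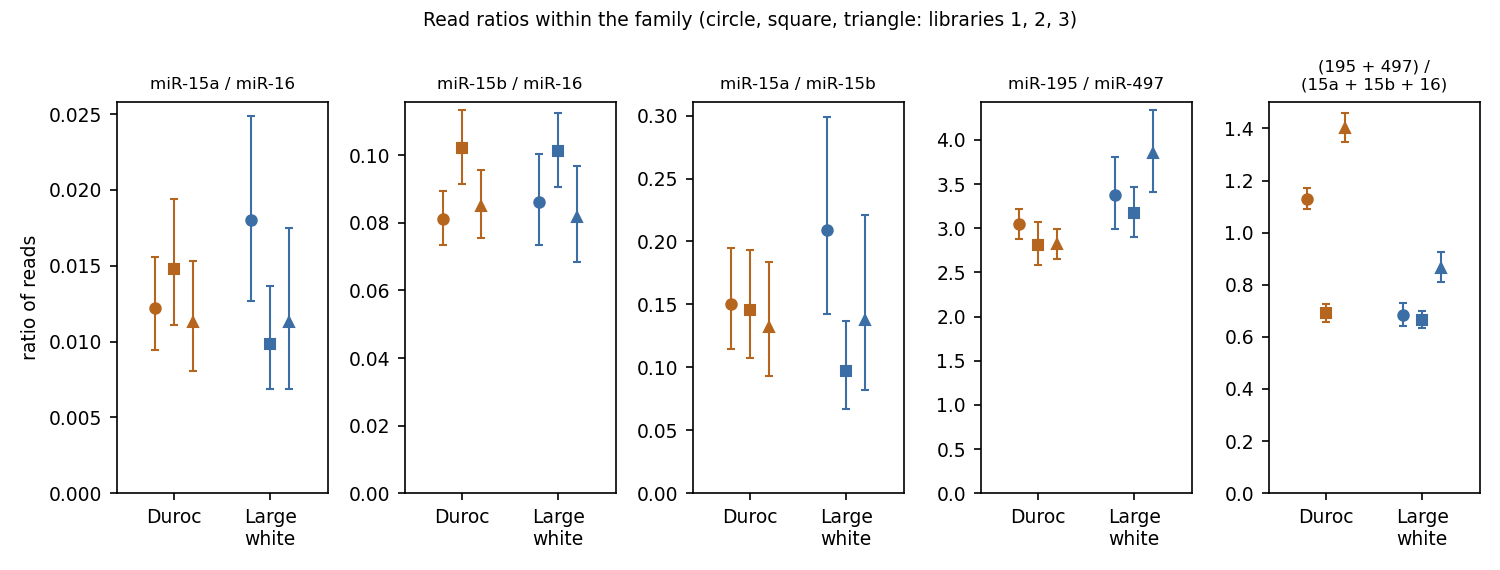
Ratios of reads within the family, with 1 point per library and exact 95% binomial intervals, which cover counting error only. The miR-15b to miR-16 ratio stays between 0.0812 and 0.102, the miR-195 to miR-497 ratio is lower in all 3 Duroc libraries, and the last ratio is above 1 in Duroc libraries 1 and 3.

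The shares of the family's reads tell the same in other terms. miR-16 took 42.9% (exact 95% binomial interval 42.1% to 43.8%), 52.9% (51.7% to 54.1%) and 38.0% (37.0% to 38.9%) in the Duroc libraries. The Large white shares were 53.7% (52.1% to 55.3%), 54.0% (52.8% to 55.2%) and 49.0% (47.4% to 50.7%). miR-497 took 10.7% to 15.3% in Duroc and 9.31% to 9.59% in Large white, and here all Duroc libraries lay higher. miR-15a stayed under 1% of the family in each of the 6 libraries.

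Across the 6 libraries, miR-15b followed miR-16 with a Pearson r of 0.96 on log2 levels (Spearman rho 0.83), and miR-15a followed it with r of 0.83 (rho 0.54). miR-497 followed miR-195 with r of 0.79 (rho 0.71). Between miR-16 and miR-497 r was -0.01, and between miR-16 and miR-195 it was 0.36. These values describe 6 libraries that share their scaling and include 2 that stood apart, and they are not tests. miR-15a and miR-15b, which lie in different genomic pairs, had r of 0.78 (rho 0.83), so the likeness was not limited to members of 1 pair.

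The miRNA most like miR-16 over the 6 libraries was miR-30b-5p (r of 0.97, rho 0.94), with Duroc levels of 673, 649 and 460 normalised RPM and Large white levels of 775, 862 and 667. miR-223, a miRNA of myeloid cells, followed with r of 0.92 at levels of only 3.54 to 12.9 normalised RPM, and miR-92a with r of 0.90. Like miR-16, all of these were lowest in Duroc library 3. Most like miR-195 were miR-545-5p (r of 0.96), miR-1 of striated muscle (r of 0.96) and miR-145-5p of smooth muscle (r of 0.93). miR-545-5p lay between 0.493 and 2.42 normalised RPM and is too scarce to weigh. Levels of miR-145-5p were 3209, 1080 and 1500 normalised RPM in the Duroc libraries, with 1690, 1487 and 2068 for Large white. As with miR-195, Duroc library 1 was the highest and Duroc library 2 the lowest.

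The lists of cell type markers did not all move alike over these libraries. Of the 5 listed names of smooth muscle and stroma, 4 were matched, and their sum was lowest in Duroc in library 2, with 201611 normalised RPM, and highest in library 1, where the scale factor of 0.464 lifts it to 1127060. Duroc library 3 held 457657 and the Large white libraries 146018 to 264322. This sum is nearly all miR-143-3p, with a mean of 584639 for Duroc, whereas the means of miR-145-5p, miR-199a-3p and miR-199a-5p were 1930, 3985 and 4891. With TMM the log2 fold changes of these 4, in the order named, were 1.65, 0.14, 0.60 and 0.31. With total scaling that of miR-143-3p was 0.68, and those of the other 3 were -0.70, -0.25 and -0.51. The listed name miR-214 carries no arm and matched no entry, but both of its arms were tested. With TMM their log2 fold changes were 0.66 for miR-214-3p and 0.76 for miR-214-5p (edgeR adjusted p = 0.379 each). Of the 5 listed miRNAs of germ cells in and after meiosis only miR-34c was tested, with the values above. The 4 listed miRNAs of spermatogonia and proliferating germ cells (miR-182, miR-183, miR-17-5p and miR-20a-5p) summed to 698, 2072 and 942 for Duroc, with 2525 to 2893 for Large white, so all Duroc libraries lay lower. Endothelial miR-126 arms summed to 8776 to 13301 in Duroc and 9130 to 9737 in Large white, and the 5 tested of 6 white cell names to 136 to 263 and 168 to 208. With TMM, 2 of those 5 had a log2 fold change above 0 and 3 below. All Duroc libraries lay lower for miR-223 (-0.79) and higher for miR-142-5p (0.46). The 2 arms of miR-202 of gonadal somatic cells summed to 9711 to 10686 and 10918 to 12458, with log2 fold changes of -0.22 for miR-202-5p and 0.40 for miR-202-3p. None of these markers passed edgeR's adjusted threshold, and their part in the levels of the family was not tested.

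Outside the family, a wider group of miRNAs has the same seed or a closely related one, and 4 of its listed names were tested, beside the other arm of miR-424. miR-103 and miR-107 are close paralogues that lie within PANK genes, and miR-424 and miR-503 are made from 1 cluster on the X chromosome. Of miR-424-5p the Duroc libraries held 81.7, 110.3 and 99.4 normalised RPM, the Large white libraries 188, 173 and 122. All Duroc libraries lay lower, as for miR-16. Its log2 fold change was -0.73 (SE 0.26, 95% interval -1.32 to -0.14), with an unadjusted p of 0.0215 that did not pass edgeR's adjustment over all miRNAs (adjusted p = 0.259). With total scaling its breeds overlapped.

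Of miR-503, from the same cluster, the Duroc libraries held 45.3, 92.0 and 70.0 normalised RPM and the Large white libraries 65.5, 80.3 and 51.8, with a log2 fold change of 0.06 (SE 0.33, edgeR adjusted p = 0.946). Reads of miR-424-5p per read of miR-503 numbered 1.81, 1.20 and 1.42 (Duroc) and 2.87, 2.15 and 2.35 (Large white), a ratio taken after these levels were seen and not tested. The other arm, miR-424-3p, which does not share the seed, had a log2 fold change of -0.05 (SE 0.35). Reads of miR-424-5p per read of miR-424-3p numbered 3.05, 3.89 and 2.08 (Duroc) and 7.47, 4.49 and 2.81 (Large white). The breeds overlapped in this ratio, which was not tested either.

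miR-103 was the most abundant of the wider group, at rank 27 of the 300 named miRNAs. Its levels were 3389, 3398 and 2905 normalised RPM in the Duroc libraries, next to Large white levels of 4887, 4215 and 3297, with a log2 fold change of -0.36 (SE 0.24, edgeR adjusted p = 0.463). Levels of miR-107 were 279, 198 and 344 for Duroc, next to 255, 213 and 178 for Large white, with a log2 fold change of 0.35 (SE 0.28, edgeR adjusted p = 0.529). The breeds overlapped for both. Reads of miR-103 per read of miR-107 numbered 12.1, 17.2 and 8.44 (Duroc) and 19.2, 19.8 and 18.5 (Large white). This ratio was lower in every Duroc library. It was taken after the levels were seen and was not tested. Their sequences are near-identical, so reads may have been shared between the names.

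**Figure D4:**
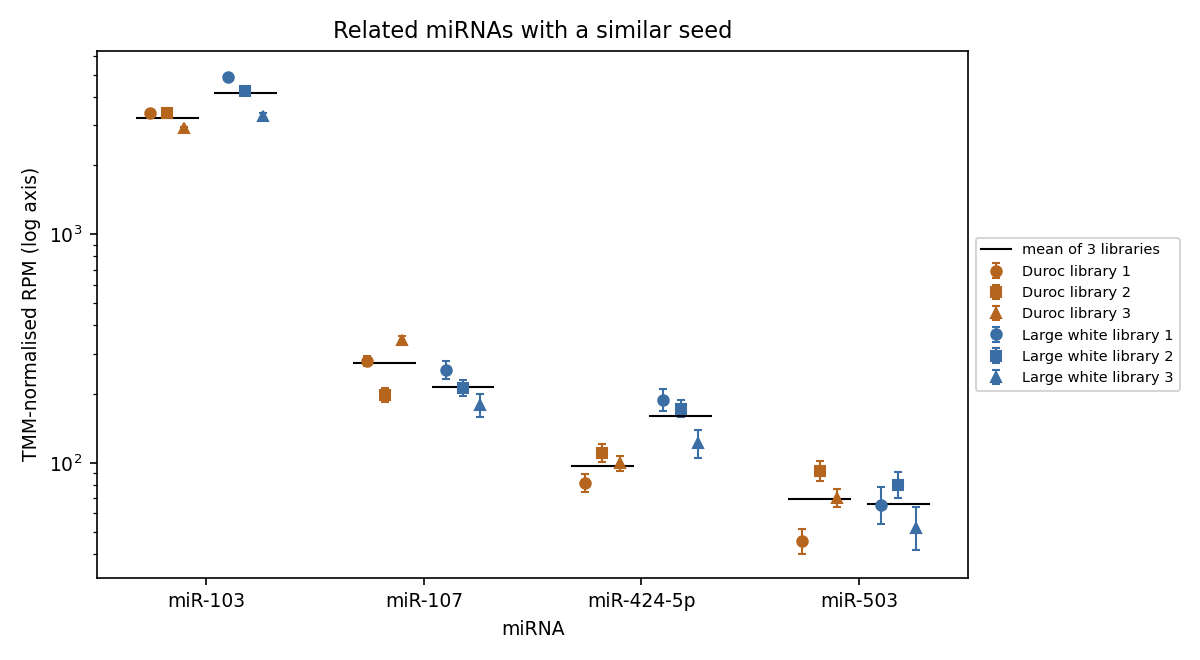
Normalised RPM on a log axis for miR-103, miR-107, miR-424-5p and miR-503, with 1 point per library, black lines for breed means and bars for the exact 95% Poisson interval of the reads. miR-424-5p is lower in all 3 Duroc libraries (81.7 to 110.3) than in Large white (122 to 188), whereas the libraries of the breeds overlap for the others.

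The spread within a breed was larger in Duroc for each of the 5 members. The coefficient of variation of miR-16 was 28.3% in Duroc and 8.12% in Large white, that of miR-195 28.7% and 9.24%, and that of miR-497 24.0% and 5.62%. miR-15b had 32.9% and 19.5%, and the scarce miR-15a 36.9% and 32.7%. The median over the 300 named miRNAs was 30.9% in Duroc and 19.2% in Large white. In Duroc the members thus varied about as much as the median miRNA, and in Large white miR-16, miR-195 and miR-497 varied less than it. That median covers miRNAs of all levels, so the members were not compared with miRNAs of like level.

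**Figure D5:**
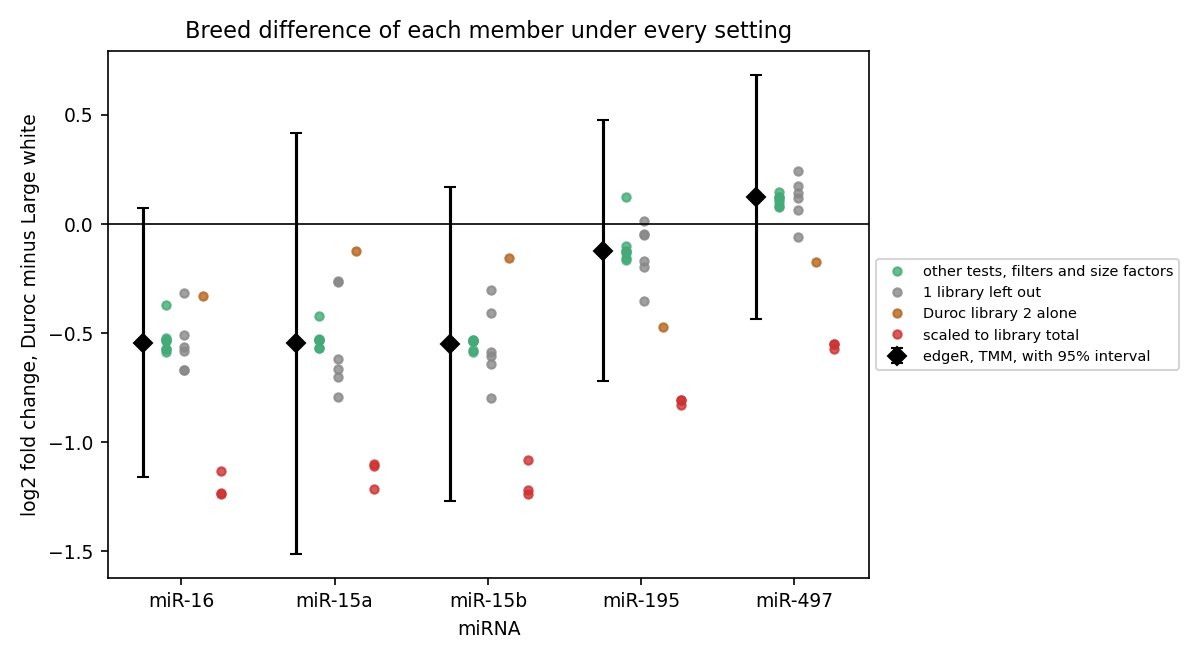
Log2 fold change, Duroc minus Large white, of each member under the main fit (black, with its 95% interval) and under every alternative test, filter, scaling and set of libraries. miR-16, miR-15a and miR-15b stay below 0 throughout, whereas miR-195 ranges from -0.83 to 0.12 and miR-497 from -0.57 to 0.24.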

How the data were processed

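Total RNA of testis was made into small RNA libraries with a TruSeq kit and sequenced from single ends, per the labels' protocols. The submitters' processing notes name STAR 2.7.10a, Salmon 1.9.0, Bowtie 1.3.1 and the build susScr11, with roles not given in the sources used here. Each entry of the deposited files held a read count per mature miRNA and precursor, and RPM, which the authors scaled to the sum of those counts. For a name listed several times, the entry with the highest mean count was kept.

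The quasi-likelihood test of edgeR 4.0.16 (R 4.3.3), with TMM scaling and breed as its single term, was run on counts for the 421 names with an RPM of at least 1 in at least 3 libraries. Benjamini-Hochberg adjustment ran over all 421, with a threshold of 0.05. The SE divides the log2 fold change by the root of F, an approximation, and 95% intervals use the fit's degrees of freedom. Ratios had 0.5 reads added to each side. limma 3.58.1 and DESeq2 1.42.0 were alternatives. The fit was also run on 421 simulated miRNAs, where it missed most small differences. At a 2-fold change edgeR picked up only 3 among the 20 altered miRNAs. Its yield rose to 15 when they were altered 4-fold, and to 19 when altered 8-fold. Among the 361 left unaltered, 1 was called. In the main fit each member differed by less than 2-fold, so the lack of calls does not show that the breeds were alike. Permutation tests and the Poisson and binomial intervals used scipy 1.17.1.

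All members, the 4 names of the wider seed group that were tested, and the 3 miRNAs most correlated with miR-16 and with miR-195 are named. The members, lists and tests were chosen with earlier results of these data known. The 6 RNA files were not used, since no table at hand pairs their transcripts with genes, so target and host genes were not analysed here.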

Additional observations from a re-analysis of the deposited data

How the results depend on the processing

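No member was called under any of the alternatives. miR-16, miR-15a and miR-15b stayed below 0 under all that were run. miR-195 turned to 0.12 with quantile normalisation, and was between -0.35 and 0.012 with 1 library left out. miR-497 turned to -0.57 with total scaling, -0.55 with limma at a pseudocount of 1 or 0.1 and -0.17 with Duroc library 2 alone, and was between -0.059 and 0.24 with 1 library left out. Against 0 miRNAs called in all, DESeq2 called 14 of 421, and omitting the filter gave 5 of 637. Leaving out 1 library gave 0 to 65, the highest without Duroc library 2 (of 402 tested) and 1 without Duroc library 3 (of 404). Without Duroc library 2, 2 of the 5 members and 132 of the 402 miRNAs had an unadjusted p under 0.05 by edgeR. The smallest edgeR adjusted p of a member was then 0.11. Among the ratios, the miR-15a to miR-15b difference was -0.0041 with 1 read added to each side. With 1 library left out, the differences ranged from -0.18 to 0.25 for miR-15a to miR-16, -0.11 to 0.082 for miR-15b to miR-16 and -0.26 to 0.29 for miR-15a to miR-15b; the other ratios kept their sign. The cause of these changes was not tested.

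With the replicate number as a block, 1 miRNA was called and no member, and miR-16 had a log2 fold change of -0.58 (edgeR adjusted p = 0.464). Libraries with the same number did not deviate together, with correlations of -0.22, -0.12 and -0.07 for numbers 1 to 3. Those of libraries with different numbers were -0.075 to 0.184. This check showed no pairing by number, but with 3 libraries per breed it cannot exclude it. Depth limits miR-15a most, with 20 reads in Large white library 3.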
